A study of Rattus norvegicus with 6 samples.

Results

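The 9 genes described here are 8 that encode carriers and enzymes of the mitochondrial oxidation of long- and medium-chain fatty acids, and the coactivator gene Ppargc1a. They are the features of the deposited table named Cpt1a, Cpt2, Slc25a20, Acadm, Acadl, Acadvl, Hadha, Hadhb and Ppargc1a, chosen by name, and all 9 were found among its 19289 features. Messenger RNA was sequenced from INS-1E cells, an insulin-secreting line derived from a rat insulinoma. The labels place 3 libraries in an untreated group and 3 in a group treated with uric acid (UA in the labels) for 24 hours. Both groups are the same cell line with no named genetic change. The labels used here give no uric acid concentration and no vehicle, and do not say whether the libraries of a group came from separate cultures. The p-values therefore measure the spread between these libraries, which may be technical.

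Fatty acids enter mitochondria as carnitine esters. Carnitine palmitoyltransferase 1, on the outer membrane, makes the ester and is inhibited by malonyl-CoA, so that a beta cell well supplied with glucose oxidises less fat. A carrier moves the ester across the inner membrane, carnitine palmitoyltransferase 2 returns the acyl group to CoA, and each turn of beta-oxidation then removes an acetyl unit through a dehydrogenase, a hydratase, a second dehydrogenase and a thiolase. PGC-1alpha, the product of Ppargc1a, is a coactivator that works with PPAR and ERR nuclear receptors on genes of mitochondrial biogenesis and fat oxidation, and its own gene is a classical target of cAMP signalling through CREB.

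Levels are given in FPKM, fragments scaled by transcript length and by library size, which allows comparison between genes. Values of the 3 libraries of a group are listed in the order of replicate number. Fitted changes are log2 fold changes of uric acid over untreated from edgeR, with a standard error, and an adjusted p under 0.05 over all tested features counted as a call. Summed estimated counts ran from 41191819 to 59092982 per library, and the 3 untreated libraries were deeper on average. The sources used here do not state the unit of these counts, and about 4 per full read pair was inferred from the values. Beta-cell markers were abundant: Ins1 stood between 43000 and 55060 FPKM, and 17 of 17 matched beta-cell markers averaged at least 1 FPKM. None of the 7 matched leukocyte markers, the 2 matched delta and PP cell markers or the 4 matched adipocyte and hepatocyte markers did. The alpha-cell gene Gcg stood between 5.46 and 10.6 FPKM. Among 5 matched endothelial markers Esam did (9.74 to 15.7 FPKM), among 6 matched duct markers Krt7 (170 to 192 FPKM) and Sox9 did, and Krt19, a defining duct keratin, was listed at 0 in 5 of the 6 libraries. With uric acid the beta-cell factor Mafa fell by 0.47 on the log2 scale (adjusted p = 0.0129), the beta-cell peptide Ucn3 rose by 0.50 (adjusted p = 0.0296) and Sox9 fell by 1.07 (adjusted p = 0.00828), calls that passed in 4, 3 and 6 of the 6 fits with a library left out. Their part in the other results was not tested. In bulk RNA, a change in the number of cells of one kind and a change in the RNA per cell cannot be told apart.

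Of the carnitine route into mitochondria, Cpt1a and Slc25a20 transcripts were 25.8% and 35.3% higher with uric acid. Those of Cpt2, of the same route, and of the enzymes of the beta-oxidation spiral did not pass the test. Whether the called members differed from the others was not tested, and their 95% intervals overlapped those of Acadm, Acadl and Hadhb. The call of Cpt1a was lost with any 1 library left out, and that of Slc25a20 in most of those fits. Of the 8 members that averaged at least 1 FPKM and were tested, 2 rose, none fell and 6 missed the threshold. Across all 12460 features tested the same way, 7.98% were called, 4.99% as higher and 2.99% as lower. The log2 fold change was above 0 for 6 of the 8 and its median was 0.19, beside 0.00 for all tested features. Without uric acid library 2 it was above 0 for 5 of the 8 and the median was 0.08, and with another library left out the median was between 0.16 and 0.27. Ppargc1a averaged 0.84 FPKM and lay below that minimum. In a fit of all 19289 features with a count it was about 2-fold higher with uric acid, at an adjusted p just under the threshold.

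By mean level over the 6 libraries the order was Hadhb (70.8 FPKM), Hadha (65.9), Slc25a20 (31), Cpt2 (29.5), Acadvl (29.2), Acadl (28.1), Cpt1a (15.9), Acadm (11.8) and Ppargc1a (0.84). The ranges of Hadhb and Hadha overlapped, as did those of Slc25a20, Cpt2, Acadvl and Acadl, and those of Cpt1a and Acadm. Between these sets and for Ppargc1a the ranges of all 6 libraries were separate, and the message for the regulated entry enzyme Cpt1a was the second lowest among the 8 enzymes and carriers. Summed over these 8 genes, the level was 267, 265 and 276 FPKM without uric acid and 289, 319 and 276 FPKM with it. Uric acid library 3 thus lay within the untreated range and uric acid library 2 was the highest.

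**Figure D1:**
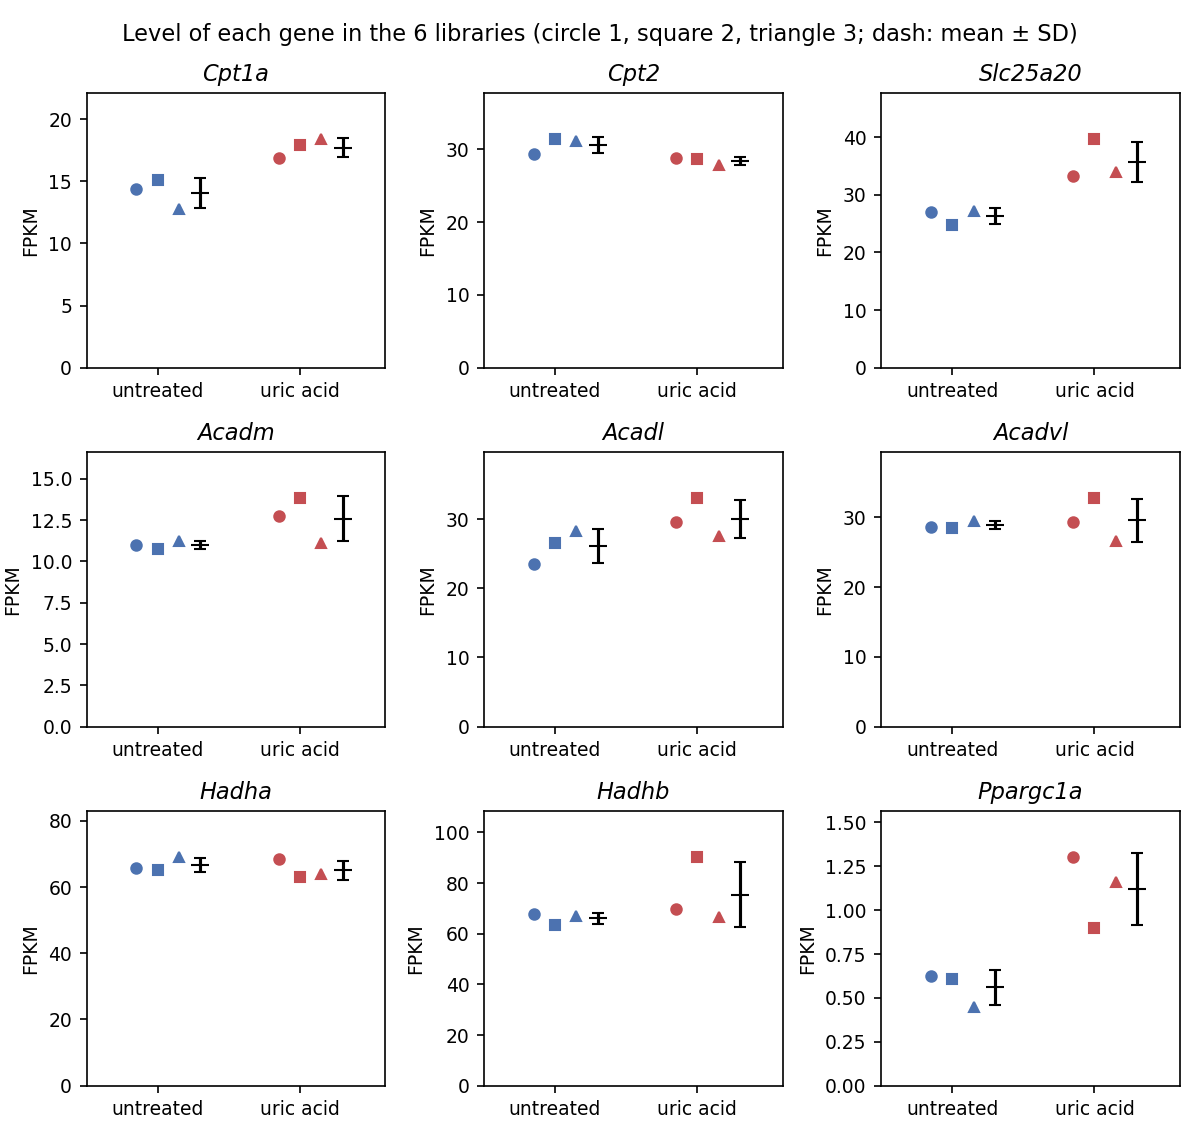
FPKM (y axes, from 0) of each of the 9 genes in the 3 untreated (blue) and 3 uric acid (red) libraries; the black dash and bars are the mean and SD of 3 libraries. The groups are separate for Cpt1a, Cpt2, Slc25a20 and Ppargc1a, and the square of uric acid library 2 is the highest point for 5 genes.

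Cpt1a encodes the liver-type isoform of carnitine palmitoyltransferase 1, the step that commits a fatty acid to oxidation (ENSRNOG00000014254, chromosome 1 from 218569510 to 218629678, plus strand, in the deposited table, whose build the sources used here do not name). Its level was 14.3, 15.1 and 12.8 FPKM without uric acid and 16.9, 17.9 and 18.4 FPKM with it. All uric acid libraries were above all untreated ones. The mean moved from 14.1 ± 1.2 to 17.7 ± 0.775 FPKM (SD, n = 3 per group), 25.8% higher, and the log2 fold change was 0.33 ± 0.08 (adjusted p = 0.0359). This call was lost with any 1 library left out (adjusted p from 0.0605 to 0.104), in the fit of every feature with a count (0.0608), and with limma on log2(FPKM + 1) (0.0602), though the fitted change stayed between 0.27 and 0.38. Fits with a library left out have fewer degrees of freedom.

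Slc25a20 encodes the carnitine-acylcarnitine translocase of the inner membrane, which exchanges acylcarnitine for free carnitine (ENSRNOG00000020288, chromosome 8 from 117455262 to 117476734, plus strand). It stood at 27.1, 24.7 and 27.2 FPKM without uric acid and 33.2, 39.6 and 34.0 FPKM with it, with no overlap. The mean rose from 26.3 ± 1.41 to 35.6 ± 3.49 FPKM, 35.3% higher, with a log2 fold change of 0.44 ± 0.09 (adjusted p = 0.0233), the largest among the 8 tested members. The call held without uric acid library 2 (adjusted p = 0.037) and without uric acid library 3 (0.0241), and was lost in each fit without one of the untreated libraries (adjusted p = 0.0677, 0.118 and 0.0538 for libraries 1, 2 and 3) and in the fit without uric acid library 1 (0.0513).

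Cpt2 encodes the inner-membrane transferase that completes the shuttle (ENSRNOG00000012443, chromosome 5 from 127505614 to 127523089, minus strand). It went the other way, with 29.4, 31.4 and 31.2 FPKM without uric acid and 28.8, 28.7 and 27.8 FPKM with it. The groups did not overlap, but the difference was small: the means were 30.6 ± 1.11 and 28.4 ± 0.55 FPKM, and the log2 fold change of -0.11 ± 0.06 missed the threshold (adjusted p = 0.327, 95% interval -0.26 to 0.04). Non-overlap was found for 3 of the 8 tested members, and for 31.0% of all tested features. Set against Cpt2 in the same library, Slc25a20 had a ratio of FPKM of 0.922, 0.787 and 0.873 without uric acid and of 1.15, 1.38 and 1.22 with it. The ratio of Cpt1a to Cpt2 was 0.488, 0.483 and 0.41 without uric acid and 0.586, 0.624 and 0.662 with it. Both ratios were separate between groups, and they are 2 of 3 computed after the values were seen. Their separation was fixed in advance, since Cpt1a and Slc25a20 were higher and Cpt2 lower in every uric acid library. The ratios and their p-values therefore add no support to the changes of the single genes. For each the exact two-sided permutation p was 0.1, the smallest that 3 libraries against 3 can give (0.15 adjusted over the 3 ratios).

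The 250 bases before and 50 bases after the RefSeq start are shown, in build GRCr8, for the 3 genes called in either fit. Cpt1a and Slc25a20 were called in the main edgeR fit. Ppargc1a was called in the edgeR fit of every feature with a count, where Cpt1a was not (adjusted p = 0.0608). Both strands were searched for 5 motifs: the cAMP response element TGACGTCA, its core TGACG (which the full element contains on each strand), the nuclear receptor core site AGGTCA, the ERR element TCAAGGTCA (which contains AGGTCA), and an amino acid response element written TGATGNAAN. Capitals mark any match. The windows are chr1:209995910-209996209 on the plus strand for Cpt1a, chr8:118243323-118243622 on the plus strand for Slc25a20 and chr14:63634058-63634357 on the plus strand for Ppargc1a.
Cpt1a: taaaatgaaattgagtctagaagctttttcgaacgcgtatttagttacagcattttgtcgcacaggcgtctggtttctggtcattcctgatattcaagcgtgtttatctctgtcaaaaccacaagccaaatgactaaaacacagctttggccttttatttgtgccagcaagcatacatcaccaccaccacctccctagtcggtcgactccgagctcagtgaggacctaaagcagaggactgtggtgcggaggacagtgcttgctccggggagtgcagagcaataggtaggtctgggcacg
Slc25a20: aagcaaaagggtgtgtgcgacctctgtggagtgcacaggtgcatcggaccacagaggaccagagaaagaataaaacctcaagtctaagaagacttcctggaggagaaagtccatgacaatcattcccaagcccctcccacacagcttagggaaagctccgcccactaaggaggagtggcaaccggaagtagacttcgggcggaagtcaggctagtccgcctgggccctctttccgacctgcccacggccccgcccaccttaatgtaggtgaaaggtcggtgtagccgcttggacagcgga
Ppargc1a: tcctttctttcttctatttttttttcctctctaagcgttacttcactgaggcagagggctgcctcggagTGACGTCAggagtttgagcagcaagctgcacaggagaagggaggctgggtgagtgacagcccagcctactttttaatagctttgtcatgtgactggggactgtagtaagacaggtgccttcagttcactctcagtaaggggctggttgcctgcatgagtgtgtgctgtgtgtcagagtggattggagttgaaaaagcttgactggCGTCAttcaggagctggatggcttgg

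The Ppargc1a window held a full cAMP response element that begins 181 bases before the start and a further TGACG, on the other strand, 24 bases after it, while the Cpt1a and Slc25a20 windows held none of the 5 motifs. The full element was present in 1.83% of 33469 RefSeq rat promoters of the same length and TGACG in 21.2%. AGGTCA was present in 16.2%, the ERR element in 0.433% and the amino acid response element in 3.97%. Of the 8 members with a window (Acadl had no entry), Acadm also held the full element, 103 bases before its start, and its transcript missed the threshold. A match is a string of letters and not a measured site, and its absence says only that these letters are not in the window.

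The acyl-CoA dehydrogenases, which open each turn of beta-oxidation and divide the substrates by chain length, did not pass the test. Acadvl, for very long chains (ENSRNOG00000018114, chromosome 10 from 56619303 to 56624526, minus strand), stood at 28.6, 28.4 and 29.5 FPKM without uric acid and 29.4, 32.8 and 26.6 FPKM with it. The uric acid libraries lay on both sides of the untreated ones, and the log2 fold change was 0.03 ± 0.09 (adjusted p = 0.837, 95% interval -0.16 to 0.23). The listed span of Acadvl overlaps the microRNA gene Mir324 on the other strand, which averaged 0.403 FPKM; no other member overlapped a listed feature.

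Acadl, for long chains (ENSRNOG00000012966, chromosome 9 from 73833388 to 73871888, minus strand), stood at 23.5, 26.5 and 28.3 FPKM without uric acid and 29.6, 33.0 and 27.6 FPKM with it. Untreated library 3 was above uric acid library 3, so the groups overlapped, and the log2 fold change was 0.20 ± 0.10 (adjusted p = 0.254, 95% interval -0.03 to 0.43). It was 0.12 without uric acid library 2 and 0.13 without untreated library 1. Acadm, for medium chains (ENSRNOG00000009845, chromosome 2 from 260124418 to 260148589, minus strand), stood at 11.0, 10.7 and 11.2 FPKM without uric acid and 12.8, 13.8 and 11.1 FPKM with it. The coefficient of variation of its untreated libraries was 2.28%, and uric acid library 3 alone fell among them. The log2 fold change was 0.19 ± 0.10 (adjusted p = 0.277, 95% interval -0.04 to 0.43), and it was 0.12 without uric acid library 2.

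Hadha and Hadhb encode the alpha and beta subunits of the mitochondrial trifunctional protein, which carries out the remaining steps on long chains: alpha holds the hydratase and the second dehydrogenase, beta the thiolase. Hadha (ENSRNOG00000024629, chromosome 6 from 27589657 to 27629175, plus strand) stood at 65.9, 65.0 and 69.0 FPKM without uric acid and 68.4, 63.1 and 63.9 FPKM with it. The groups overlapped, and the log2 fold change was -0.04 ± 0.06 (adjusted p = 0.767, 95% interval -0.18 to 0.11). Hadhb (ENSRNOG00000010800, chromosome 6 from 27555412 to 27582995, minus strand) stood at 67.6, 63.4 and 67.0 FPKM without uric acid and 69.7, 90.2 and 66.5 FPKM with it. Uric acid library 2 stood apart from the other 5, which lay between 63.4 and 69.7 FPKM. The log2 fold change of Hadhb was 0.19 ± 0.11 (adjusted p = 0.316, 95% interval -0.06 to 0.44), and without uric acid library 2 it was 0.04 (adjusted p = 0.77).

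The ratio of Hadhb to Hadha was close to 1 in 5 libraries: 1.03, 0.975 and 0.97 without uric acid, and 1.02 and 1.04 in uric acid libraries 1 and 3. It was 1.43 in uric acid library 2, where Hadha was at its lowest and Hadhb at its highest (exact two-sided permutation p between groups = 0.2, 0.2 adjusted over 3 ratios). The 2 genes lie head to head on opposite strands, and their RefSeq starts are 301 bases apart in GRCr8. The spans listed for them in the deposited table are separated by 6661 bases, so the window need not be the start of the listed features. The 200 bases that both promoter windows share, chr6:31907551-31907750 on the plus strand, are shown because they lie between the starts of the genes for both subunits; no searched motif lies in them.
Hadha and Hadhb: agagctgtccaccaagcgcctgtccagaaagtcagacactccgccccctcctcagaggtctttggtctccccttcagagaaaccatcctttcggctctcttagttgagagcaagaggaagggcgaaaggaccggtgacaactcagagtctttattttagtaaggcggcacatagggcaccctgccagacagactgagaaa

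**Figure D2:**
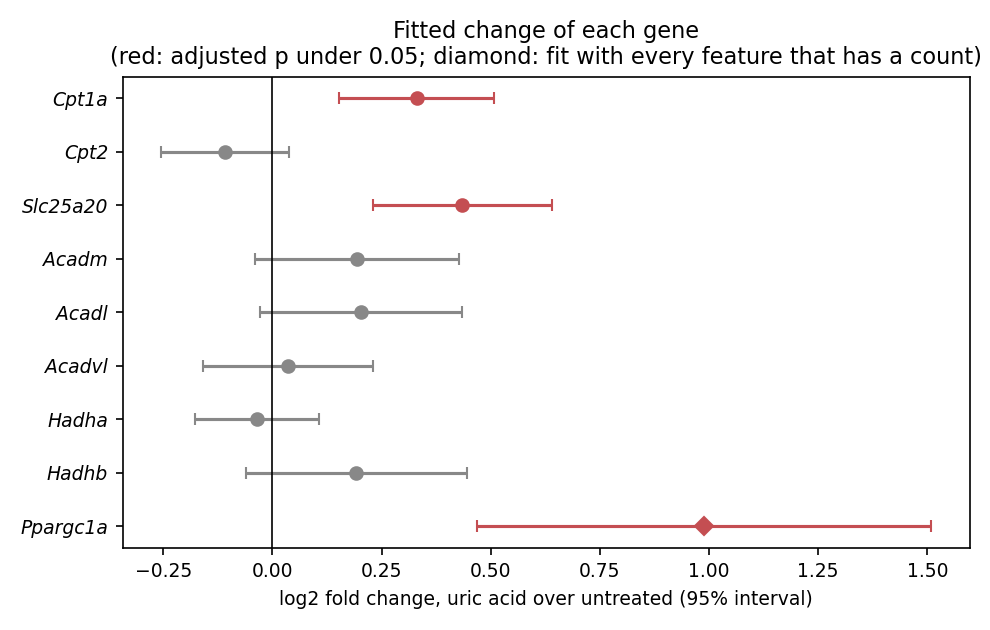
Log2 fold change (x axis, uric acid over untreated) of each gene with its 95% interval from the edgeR fit; red marks an adjusted p under 0.05, and the diamond of Ppargc1a comes from the fit of every feature with a count. The intervals of Cpt1a, Slc25a20 and Ppargc1a lie above 0, and the other 6 include it.

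Ppargc1a (ENSRNOG00000004473, chromosome 14 from 63095720 to 63187009, plus strand) was scarce in these cells. It stood at 0.627, 0.609 and 0.446 FPKM without uric acid and 1.302, 0.896 and 1.16 FPKM with it, with no overlap. These values rest on 124, 107 and 72 estimated counts without uric acid and 211, 123 and 176 with it. That is roughly 18 to 53 full read pairs if each pair gives 4 counts. The counts before any scaling were higher in the uric acid libraries except that untreated library 1 had 124 and uric acid library 2 had 123, although the untreated libraries were deeper on average.

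The mean of Ppargc1a moved from 0.56 ± 0.1 to 1.12 ± 0.206 FPKM, and the log2 fold change was 0.99 ± 0.23 (95% interval 0.47 to 1.51, adjusted p = 0.0494 in edgeR over 19289 features, of which 2.42% were called as higher). The call sat on the threshold. It was lost with library totals alone (adjusted p = 0.0512), with relative log expression scaling (0.0506) and with limma on log2(FPKM + 1) (0.0841), and kept with DESeq2 (0.0123). It was lost without untreated library 1 (0.118), untreated library 2 (0.15), untreated library 3 (0.126), uric acid library 1 (0.177) and uric acid library 3 (0.0753), and kept without uric acid library 2 (0.0357), with a log2 fold change between 0.86 and 1.12 throughout.

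Cpt1a made up most of the CPT1 message in both groups. Cpt1a held 69 ± 2.97% of the summed FPKM of the CPT1 genes in untreated libraries and 70.3 ± 1.07% in uric acid libraries (n = 3 per group). Cpt1b, the muscle isoform, stood at 2.57, 2.75 and 2.52 FPKM without uric acid and 3.18, 3.79 and 3.03 FPKM with it, higher in each of the latter but below the threshold (log2 fold change 0.35 ± 0.13, adjusted p = 0.126). Cpt1c, the brain isoform, had a log2 fold change of 0.17 ± 0.13 (adjusted p = 0.451). Cpt1b held 12.8 ± 0.186% of the summed FPKM in untreated and 13.2 ± 1.46% in uric acid libraries, and Cpt1c 18.2 ± 2.89% and 16.5 ± 0.546%. The share of Cpt1a differed between groups by less than its SD in the untreated libraries.

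In the PGC-1 family, Ppargc1a and Pprc1 were called in opposite directions in the edgeR fit of every feature with a count (adjusted p = 0.0494 and 0.00127). Pprc1, which encodes the PGC-1-related coactivator that acts with NRF1 on genes of the respiratory chain, was the most abundant of the family. It stood at 17.4, 15.0 and 14.8 FPKM without uric acid and 9.21, 8.29 and 9.16 FPKM with it. In the main edgeR fit Pprc1 fell by 0.82 ± 0.08 on the log2 scale (adjusted p = 0.000962), a call kept in all 6 fits with a library left out. Ppargc1b, which encodes PGC-1beta, stood at 0.781, 0.646 and 1.03 FPKM without uric acid and 0.553, 0.399 and 0.684 FPKM with it. Its groups overlapped, and its log2 fold change in the fit of every feature with a count was -0.59 ± 0.27 (adjusted p = 0.284). Ppargc1a made up 3.27 ± 0.516% of the family's summed FPKM in untreated and 10.6 ± 1.21% in uric acid libraries, while Pprc1 went from 91.9 ± 0.844% to 84.3 ± 1.87%. These shares are tied: the fall of Pprc1, which is most of the sum, by itself raises the share of Ppargc1a.

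**Figure D3:**
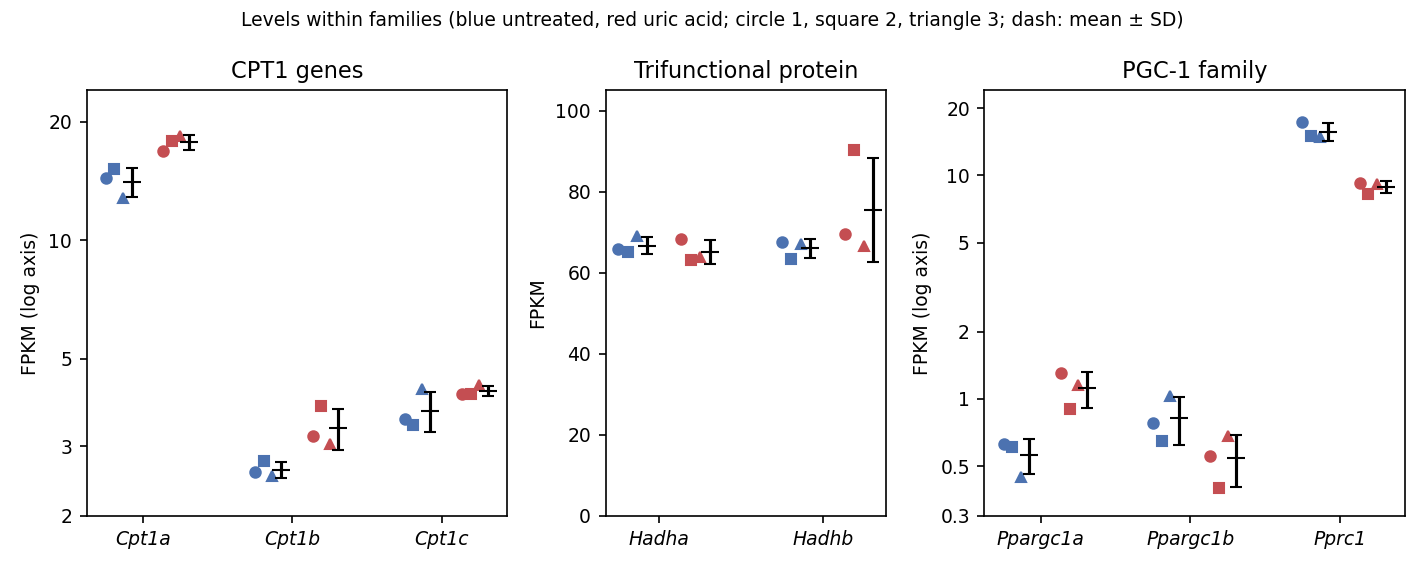
FPKM of the CPT1 genes and the PGC-1 family (log y axes) and of the trifunctional protein subunits (linear y axis from 0) in untreated (blue) and uric acid (red) libraries, with the mean and SD of 3 libraries as a black dash and bars. Ppargc1a is higher and Pprc1 lower in each uric acid library, and the Hadhb point of uric acid library 2 stands at 90.2 FPKM.

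The rest of the pathway was described through 10 lists of other genes, 196 in all, of which 174 were matched to the table and 148 tested. Of these 148, 11 rose and 3 fell (9.46%, beside 7.98% of all tested features). In each of the 6 fits that left out 1 library, the calls of G0s2, Pprc1, Rxrb, Sik1 and Cyp4a8 passed. Those of 8 genes (Acad8, Phyh, Lpin1, Tfe3, Twist1, Prkag2, Vldlr and Fgf21) passed in at most 3 of the 6 fits. Each of these 8 was lost without untreated library 1 (adjusted p from 0.0561 to 0.133) and without uric acid library 1 (0.0501 to 0.13).

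Upstream of the carnitine route, none of 18 tested genes of fatty acid uptake and activation was called (median log2 fold change 0.02, from -0.36 to 0.74). Its most abundant members were Fabp5, a fatty acid binding protein at 60.5 and 47.2 FPKM in the 2 groups (-0.36, adjusted p = 0.184), and Acsl5, an acyl-CoA synthetase (-0.04, adjusted p = 0.818). Among 11 tested genes of lipolysis and lipid droplets 1 rose and none fell (median 0.12), beside 4.99% called as higher and 2.99% as lower among all tested features. The gene that rose was G0s2, whose product inhibits the triglyceride lipase ATGL. It stood at 36.9, 36.1 and 43.4 FPKM without uric acid and 112, 161 and 87.3 FPKM with it. Its log2 fold change was 1.63 ± 0.20 (adjusted p = 0.00226), the largest in the 10 lists. Dgat1, which makes triglyceride, had a value of -0.04 (adjusted p = 0.832).

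Of the 6 other tested genes of the shuttle and of malonyl-CoA control none was called (median -0.03). The most abundant were Crat, a carnitine acetyltransferase (-0.06, adjusted p = 0.685), and Mlycd, which breaks down malonyl-CoA (0.00, adjusted p = 0.984). Among 18 tested genes of a list of other mitochondrial acyl-CoA genes 1 rose and none fell, with a median of 0.08. The shares of all tested features were 4.99% called as higher and 2.99% as lower. The list holds dehydrogenases, hydratases, isomerases and thiolases, and also the CoA hydrolases Nudt7, Nudt8 and Nudt19, Mcat of mitochondrial fatty acid synthesis, and the assembly factor Ecsit. Acad8, a dehydrogenase of valine breakdown, rose from 7.16 to 10.3 FPKM (0.52 ± 0.12, adjusted p = 0.0311). Hadh, the short-chain hydroxyacyl-CoA dehydrogenase that also restrains insulin release, was the most abundant at 146 and 129 FPKM (-0.19, adjusted p = 0.223), followed by Hsd17b10 (-0.03, adjusted p = 0.872), whose span overlaps Ribc1 on the other strand.

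None of 9 tested genes of electron transfer flavoprotein and propionyl-CoA metabolism was called (median 0.12). Etfa and Etfb, which take the electrons of the acyl-CoA dehydrogenases, had values of 0.14 (adjusted p = 0.404) and 0.11 (adjusted p = 0.447). Etfb overlaps AABR07003186 on the same strand, so its value is uncertain. Of 13 tested genes of peroxisomal oxidation 1 rose and none fell (median 0.14), beside 4.99% called as higher and 2.99% as lower among all tested features. Phyh, which starts the breakdown of phytanic acid, rose from 24 to 31 FPKM (0.36 ± 0.10, adjusted p = 0.0494), a call lost with any 1 library left out. Scp2, a thiolase and lipid transfer protein, had a value of 0.09 (adjusted p = 0.422). Among genes of ketone body use, Oxct1 (0.12, adjusted p = 0.348) and Bdh1 (-0.29, adjusted p = 0.0726) missed the threshold.

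**Figure D4:**
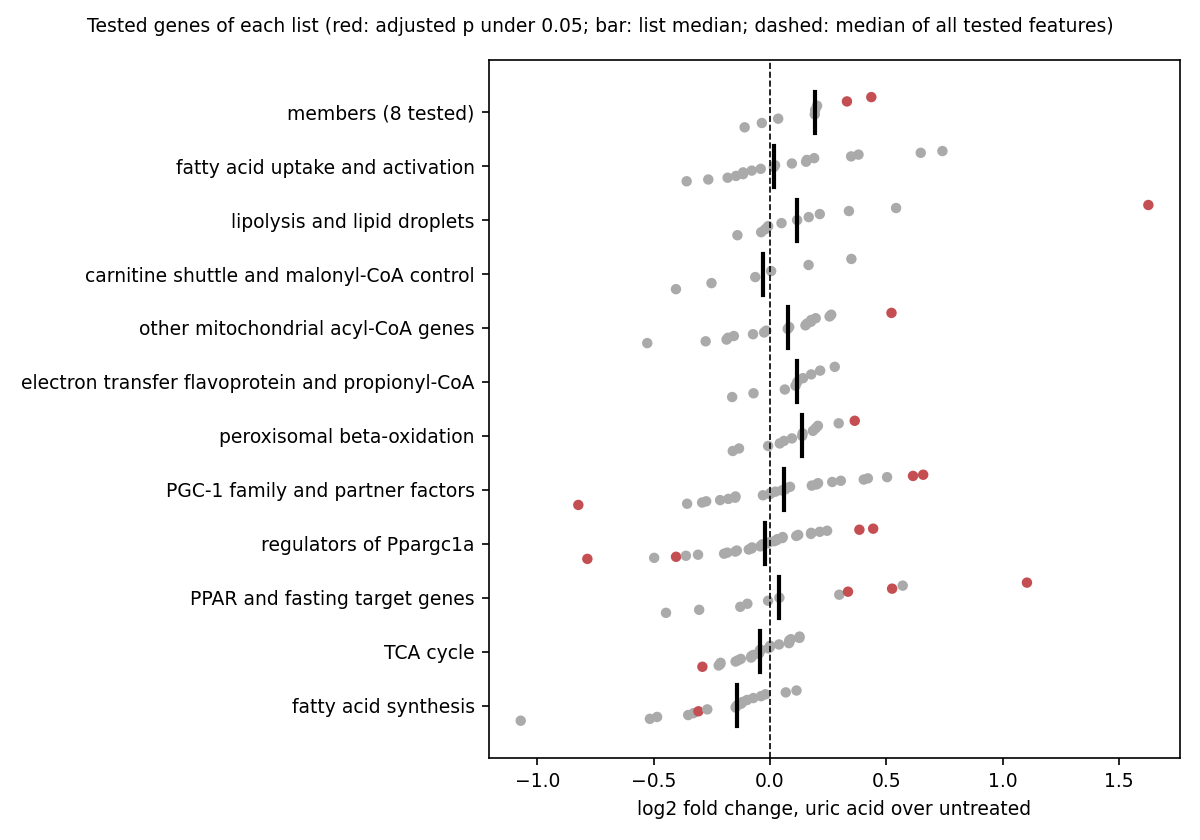
Log2 fold change (x axis, uric acid over untreated) of each tested gene of the lists shown; points are genes (red for an adjusted p under 0.05), bars the list medians and the dashed line the median of all tested features. The list medians lie between -0.14 (fatty acid synthesis) and 0.19 (the 8 tested members), and G0s2 is the point farthest to the right.

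Of 26 tested PGC-1 family members and partner factors 2 rose, 1 fell and 23 missed the threshold (median 0.06), beside 7.98% called among all tested features. Besides Pprc1, Rxrb, a partner receptor of the PPARs, rose from 8.03 to 12.7 FPKM (0.66 ± 0.08, adjusted p = 0.00229), and Lpin1, a phosphatidate phosphatase that also coactivates with PGC-1alpha in liver, rose from 6.54 to 10.02 FPKM (0.61 ± 0.14, adjusted p = 0.0309). The most abundant were Tfam, the factor that packages mitochondrial DNA (0.30, adjusted p = 0.0521), and Esrra, the receptor ERRalpha (-0.03, adjusted p = 0.83), which overlaps Trmt112 on the other strand and AC098622 on the same strand, so that its reads may be shared.

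Of 30 tested regulators of Ppargc1a 2 rose and 2 fell (median -0.02), beside 4.99% called as higher and 2.99% as lower among all tested features. Sik1, a kinase that keeps CREB coactivators out of the nucleus and is itself a CREB target, stood at 6.65, 7.32 and 5.62 FPKM without uric acid and 4.29, 3.70 and 3.39 FPKM with it (-0.79 ± 0.12, adjusted p = 0.00698). Prkag2, a subunit of AMP-activated kinase, fell by 0.40 (adjusted p = 0.0464), and Tfe3, a lysosomal stress factor, and Twist1, which represses PGC-1alpha targets in brown fat, rose by 0.44 (adjusted p = 0.0272) and 0.38 (adjusted p = 0.0297). The most abundant, Prmt1 (0.12, adjusted p = 0.367) and Akt1 (-0.08, adjusted p = 0.454), missed the threshold.

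Among 11 tested genes listed as PPAR or fasting targets 3 rose and none fell (median 0.04). Among all tested features 4.99% were called as higher and 2.99% as lower. Cyp4a8, a fatty acid omega-hydroxylase, stood at 57.7, 60.1 and 62.6 FPKM without uric acid and 85.9, 88.2 and 85.7 FPKM with it (0.52 ± 0.06, adjusted p = 0.00224). Cyp4a8 belongs to a family of related genes, and how well its reads were told apart from those of the others was not tested. Fgf21, a fasting hormone that is also a target of ATF4, rose from 1.65 to 3.56 FPKM (1.10 ± 0.23, adjusted p = 0.024), and Vldlr, a lipoprotein receptor, rose by 0.34 (adjusted p = 0.0236). Ucp2, the uncoupling protein of beta cells, was the most abundant at 242 and 221 FPKM (-0.13, adjusted p = 0.287).

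Likeness to Ppargc1a was measured as Pearson's r of log2(FPKM + 1) over the 6 libraries, among 10871 tested features with a settled symbol. It is a description with no p, since the genes were picked for it and the 6 points share the split into 2 groups. The 5 genes most alike were Tollip (0.998), Hltf (0.994), Wdr48 (0.994), Akap12 (0.992) and Exoc1 (0.992). The 5 most opposite were Ppp1r14b (-0.995), Btbd17 (-0.994), Parl (-0.994), Hopx (-0.988) and Ubxn8 (-0.986). Among these 10, Hltf (0.44, adjusted p = 0.0301) and Akap12 (0.64, adjusted p = 0.0108) were called as changed. Among the other members r was 0.867 for Cpt1a, 0.706 for Slc25a20 and -0.83 for Cpt2, and between -0.22 and 0.498 for the remaining 5.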

How the data were processed

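Polyadenylated RNA of 6 INS-1E libraries (3 untreated, 3 with uric acid for 24 hours, grouped by sample titles) was sequenced as read pairs of 150 bases from a dUTP (strand-marking) preparation, per the labels' protocols. Tools listed, per the submitters' processing notes, are StringTie 1.3.4d, HISAT2 2.0.4 and cutadapt 1.9, besides edgeR and DESeq2; their roles, the genome build and the strand setting of the counting are not given in the sources used here. The deposited FPKM values are the authors' own. The deposited count columns hold whole-number estimated counts, whose ratio to FPKM, set to the same median in each library, differed between libraries by a median of 0.026% over 4271 features with high counts in every library.

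The 12460 of 19289 features whose FPKM averaged 1 or more were tested with edgeR 4.0.16 in R 4.3.3 (quasi-likelihood F test, TMM factors 0.992 to 1.009, common biological coefficient of variation 0.127), with Benjamini-Hochberg adjustment over all of them, two-sided. Ppargc1a lies below this filter, so its value comes from a fit that keeps every feature with a count. Alternatives were limma 3.58.1 on log2(FPKM + 1) or log2(FPKM + 0.1), DESeq2 1.42.0, other scalings and filters (a mean FPKM of at least 0.5 was chosen after seeing the data), counts divided by 4, the replicate number as a block, and each library left out. Standard errors of log2 fold changes had a median of 0.113. On simulated data the test recovered 33 of 80 log2 changes of 0.5, 70 of 80 of 1 and 40 of 40 of 2, with 7 false calls. Changes of 0.5 were thus often missed in the simulation. It held fewer changed genes than were called in the data, which makes the adjusted threshold stricter. Its recovery therefore need not carry over to the data. Named were all members, up to 4 called and the 2 most abundant genes of each list, cell type markers, and the genes most like Ppargc1a. List genes were matched by symbol (1 through an older symbol). The members and lists were chosen with earlier results of these data known. No genome or protein sequences were used here; promoter windows are from RefSeq (GRCr8). One list is given only in part, since 1 result is not reported here.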

Additional observations from a re-analysis of the deposited data

How the results depend on the processing

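All 9 genes kept the direction of their change under the alternatives run, except Acadvl, which was -0.049 without uric acid library 2 (-0.049 to 0.109 over the fits with 1 library left out). The number of members called as higher, 2, was 1 with limma on log2(FPKM + 1) or log2(FPKM + 0.1), and 0 to 1 with a library left out; no member was called as lower in any. Ppargc1a (0.99) was 0.44 with limma on log2(FPKM + 1), 0.88 on log2(FPKM + 0.1), 0.98 with relative log expression scaling (adjusted p = 0.0506), 0.99 with library totals alone (0.0512), and 0.86 to 1.12 with a library left out. A larger pseudocount shrinks the change of a low gene by construction. The features called in all, 994, numbered 1753 with DESeq2 and 231 to 1173 with a library left out. The pathway genes called were 11 higher and 3 lower, 21 and 5 with DESeq2, and 4 to 18 and 2 to 3 with a library left out. No pairing by replicate number was seen: the deviations of same-numbered libraries correlated at 0.057, -0.063 and -0.317. Those of libraries with different numbers correlated at -0.335 to 0.369. With 3 libraries per group these values cannot exclude pairing. With the replicate block 322 features were called, 0 members and 4 pathway genes as higher, and Ppargc1a was 0.99 (adjusted p = 0.168), Cpt1a 0.33 (0.103) and Slc25a20 0.43 (0.0826). With counts divided by 4 the standard error of Ppargc1a was 0.24, beside 0.23 (adjusted p = 0.0303).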

Other observations

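Genes that oppose or follow fatty acid oxidation were counted beside it, against 4.99% called as higher and 2.99% as lower and a median of 0.00 among all tested features. Of 24 tested genes of a list of TCA cycle and related enzymes none rose and 1 fell (median log2 fold change -0.05, with 8 of 24 above 0). The list also holds the cytosolic enzymes Aco1, Idh1 and Mdh1, the carboxylase Pc and the malic enzymes Me1, Me2 and Me3. Its counts are thus not those of the cycle alone, and Me1 is also on the fatty acid synthesis list. Dlst, a subunit of the 2-oxoglutarate dehydrogenase complex, stood at 22.7, 23.7 and 23.1 FPKM without uric acid and 19.7, 18.4 and 18.7 FPKM with it (-0.29 ± 0.07, adjusted p = 0.031), a call lost with any 1 library left out. Mdh1 (-0.07, adjusted p = 0.508) and Mdh2 (-0.13, adjusted p = 0.234) were the most abundant. Of 17 tested genes of fatty acid synthesis none rose and 1 fell, with a median of -0.14 (from -1.07 to 0.11) and 2 of 17 above 0. Srebf1, the factor that drives lipid synthesis genes, stood at 44.7, 44.7 and 46.5 FPKM without uric acid and 38.5, 36.0 and 35.5 FPKM with it (-0.31 ± 0.06, adjusted p = 0.0199, passing in 2 of 6 fits with a library left out). It overlaps Rai1 on the other strand. Acly, which supplies acetyl-CoA, had a value of -0.14 (adjusted p = 0.441) and Scd2, a desaturase, one of -0.49 (adjusted p = 0.0642).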
